A study of Mus musculus with 34 samples.

Results

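The genes described here are 10 mouse genes of triglyceride synthesis and of phospholipid and fatty acid uptake (*Gpd1*, *Gpam*, *Agpat2*, *Lpin1*, *Lpin2*, *Dgat1*, *Dgat2*, *Mogat1*, *Mfsd2a* and *Cd36*), of 22380 protein-coding genes in the annotation. They were taken by name, and their binding sites were read from ChIP-seq peak lists of liver chromatin for the histone deacetylase HDAC3, the homeobox factor PROX1 and the nuclear receptor HNF4α. A peak belonged to a gene when its centre lay in a window reaching 50 kb ahead of the transcription start site (TSS) and 2 kb beyond the gene end. By this rule 78 of the 28631 listed peaks of HDAC3 and PROX1 lay at the 10 genes. A peak with the same coordinates in the HDAC3 and PROX1 lists was called co-bound, a peak of a single list HDAC3-only or PROX1-only, and HNF4α was counted as present where 50% or more of the peak lay under a single HNF4α peak.

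The livers came from male C57B/6 mice (strain as labelled) at the age of 10 weeks and at zeitgeber time 10. By the labels, HDAC3 was precipitated in 3 control livers and PROX1 in 3, and HNF4α in 2 *Hnf4α* floxed livers without the knockout. By the methods, these floxed livers had received an AAV8 virus expressing EGFP from TBG, a promoter active in hepatocytes. The libraries of each factor were pooled by the authors before peaks were called. The lists therefore hold no spread between livers and no read depth, no test between groups was possible, and intervals of shares are 95% Wilson intervals that cover counting error over peaks only. The chromatin was from whole liver, and a peak cannot be assigned to a cell type. At 4 genes of hepatocytes the windows held 8 (*Alb*), 11 (*Apoa1*), 7 (*Ttr*) and 5 (*Apob*) co-bound peaks. The windows of the leukocyte gene *Ptprc* and the endothelial gene *Cdh5* held 0 co-bound peaks and that of the endothelial gene *Pecam1* held 4.

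Triglycerides are built in the liver by adding fatty acyl chains to a glycerol phosphate backbone, removing the phosphate and adding the last chain. The enzymes act in the order GPD1 (backbone), GPAM and AGPAT2 (acyl chains), lipins (phosphate removal) and DGAT1 or DGAT2 (last chain), whereas MOGAT1 enters from monoacylglycerol. MFSD2A carries lysophosphatidylcholine and CD36 carries long-chain fatty acids into cells. HDAC3 is the deacetylase of the NCoR corepressor complex, PROX1 is a factor of hepatocyte and lymphatic development, and HNF4α is a nuclear receptor that keeps hepatocytes differentiated.

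Of the 71 co-bound peaks at the genes, 9 are shown as sequence, each the whole 200 bp peak on the forward strand of mm9, 5′ to 3′. Capitals mark matches to the HNF4α consensus with at most 2 mismatches on either strand. Such a match is present in 31.2% of all 20039 co-bound peaks and in 9.55% of windows of the same length 2 kb to either side of them. The first set holds the 3 co-bound peaks with the highest scores of an HNF4α peak that covers them, with scores of 111.7 in an intron of *Lpin2*, 109.8 in an intron of *Dgat2* and 104.1 upstream of *Gpam*.
Lpin2 intron, chr17:71551528-71551727: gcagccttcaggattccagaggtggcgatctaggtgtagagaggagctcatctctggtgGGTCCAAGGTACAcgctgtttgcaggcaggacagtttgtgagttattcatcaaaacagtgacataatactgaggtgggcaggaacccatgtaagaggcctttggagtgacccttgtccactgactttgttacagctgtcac
Dgat2 intron, chr7:106318591-106318790: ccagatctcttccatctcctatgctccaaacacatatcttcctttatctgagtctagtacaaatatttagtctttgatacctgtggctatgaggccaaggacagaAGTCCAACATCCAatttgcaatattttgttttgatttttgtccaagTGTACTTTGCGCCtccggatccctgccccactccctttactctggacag
Gpam upstream, chr19:55213852-55214051: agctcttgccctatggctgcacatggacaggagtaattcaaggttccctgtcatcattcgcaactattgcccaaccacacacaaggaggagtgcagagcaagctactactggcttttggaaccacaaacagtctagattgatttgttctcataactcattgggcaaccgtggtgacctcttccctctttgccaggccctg
The *Lpin2* peak holds 1 match, centred at -35 bp from the peak centre, and the *Dgat2* peak holds 2 that lie on opposite strands, at 11 and 57 bp. The *Gpam* peak, with an HNF4α score in the same range, holds 0, and its closest word has 3 mismatches. The *Lpin2* match starts at 71551587, at the edge of the HNF4α peak, which starts at 71551588. The *Dgat2* matches lie inside the HNF4α peak there.

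The second set holds the peaks that the primer products of the study's ChIP-reChIP fall on, loci that the study chose with their binding known. The product at *Agpat2* lies in the peak over its whole length of 130 bp, that at *Gpd1* over 90 of 162 bp and that at *Mfsd2a* over 124 of 135 bp.
Agpat2 intron, chr2:26456246-26456445: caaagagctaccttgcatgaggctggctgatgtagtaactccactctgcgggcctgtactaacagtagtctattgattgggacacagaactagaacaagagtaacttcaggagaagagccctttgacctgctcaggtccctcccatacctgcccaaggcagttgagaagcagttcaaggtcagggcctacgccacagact
Gpd1 upstream, chr15:99546330-99546529: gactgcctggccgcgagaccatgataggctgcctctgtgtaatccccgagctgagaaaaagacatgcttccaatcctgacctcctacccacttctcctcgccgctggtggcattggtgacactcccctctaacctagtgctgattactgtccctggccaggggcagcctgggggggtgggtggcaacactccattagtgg
Mfsd2a upstream, chr4:122656103-122656302: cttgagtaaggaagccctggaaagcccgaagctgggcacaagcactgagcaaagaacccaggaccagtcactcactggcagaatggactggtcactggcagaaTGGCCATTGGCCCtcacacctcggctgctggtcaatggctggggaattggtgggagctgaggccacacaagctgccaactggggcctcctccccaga
The *Mfsd2a* peak holds 1 match, 9 bp from its centre, whereas the closest words in the *Agpat2* and *Gpd1* peaks have 3 and 4 mismatches. The *Mfsd2a* match ends at 122656218 and so lies outside the HNF4α peak there, which starts at 122656234. All 3 peaks were touched by an HNF4α peak, with scores of 98.5 at *Agpat2*, 77.3 at *Gpd1* and 113.1 at *Mfsd2a*. Because the HNF4α peaks covered 43.5%, 31.0% and 34.5% of them, the 3 peaks are counted below as without HNF4α. That count follows the rule on coverage and does not show that HNF4α is absent there. At *Agpat2* the HNF4α peak of 87 bp lies wholly inside the co-bound peak and is too narrow to meet the rule. By ChIP-reChIP, the study reports HDAC3 and PROX1 bound together with HNF4α near several lipid-related genes.

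The last set was chosen after the values were seen. It holds the 2 co-bound peaks with a match without any mismatch. It also holds the 1 co-bound peak that lies within 1 kb of a member's outermost TSS and wholly upstream of it.
Lpin2 intron, chr17:71566635-71566834: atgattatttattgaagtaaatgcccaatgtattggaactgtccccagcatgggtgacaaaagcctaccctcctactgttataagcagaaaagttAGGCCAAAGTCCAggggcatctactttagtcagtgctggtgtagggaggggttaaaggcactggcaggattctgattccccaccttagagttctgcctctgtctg
Mogat2 intron in the Dgat2 window, chr7:106373240-106373439: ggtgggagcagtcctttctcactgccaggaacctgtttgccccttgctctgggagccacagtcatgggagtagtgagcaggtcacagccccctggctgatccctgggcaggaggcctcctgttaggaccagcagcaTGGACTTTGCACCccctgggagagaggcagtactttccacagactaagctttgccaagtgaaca
Lpin1 promoter, chr12:16596796-16596995: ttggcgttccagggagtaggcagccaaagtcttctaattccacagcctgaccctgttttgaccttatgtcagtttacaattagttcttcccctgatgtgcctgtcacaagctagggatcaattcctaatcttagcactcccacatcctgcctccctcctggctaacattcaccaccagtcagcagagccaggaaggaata
The match in the *Lpin2* peak is centred 1 bp from the peak centre, and the HNF4α peak there had a score of 61.3. The match in the *Mogat2* intron is centred 42 bp from the centre, at an HNF4α score of 92.4. The *Lpin1* promoter peak had no HNF4α peak in contact, and its closest word has 3 mismatches.

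All 10 genes had at least 1 co-bound peak, where 38.4% of protein-coding genes did, and all 10 had such a peak with HNF4α, where 31.1% of genes did. Of the 78 peaks, 71 were co-bound (91.0%, 95% CI 82.6 to 95.6), 7 were PROX1-only and 0 were HDAC3-only. Over the windows of all genes, 70.3% of the pairs of a peak and a gene were co-bound. A similar mix was present at the 4 hepatocyte genes named above, with 31 co-bound, 3 PROX1-only and 0 HDAC3-only peaks. The lists of further pathway genes described below held 29, 6 and 4 (triglyceride synthesis) and 38, 9 and 3 (lipid uptake). A PROX1-only peak was present at 5 of the 10 genes (25.2% of all genes) and an HDAC3-only peak at 0 (7.4% of all genes). By the limit that 3 counts set for a count of 0, which is not a Wilson bound and covers counting error only, the 0 of 78 allows a share of up to 3.85%. HDAC3-only peaks were 4.22% of all peaks and 5.01% of the pairs over all windows. The limit treats the 78 peaks as separate counts although they cluster at 10 genes, and a lower share at these genes was not tested. The median was 6 co-bound peaks per gene and 2 over the 8588 genes with any, for windows of 80.1 and 75.7 kb. Per 100 kb of window the medians were 7.13 and 2.66 co-bound peaks.

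**Figure D1:**
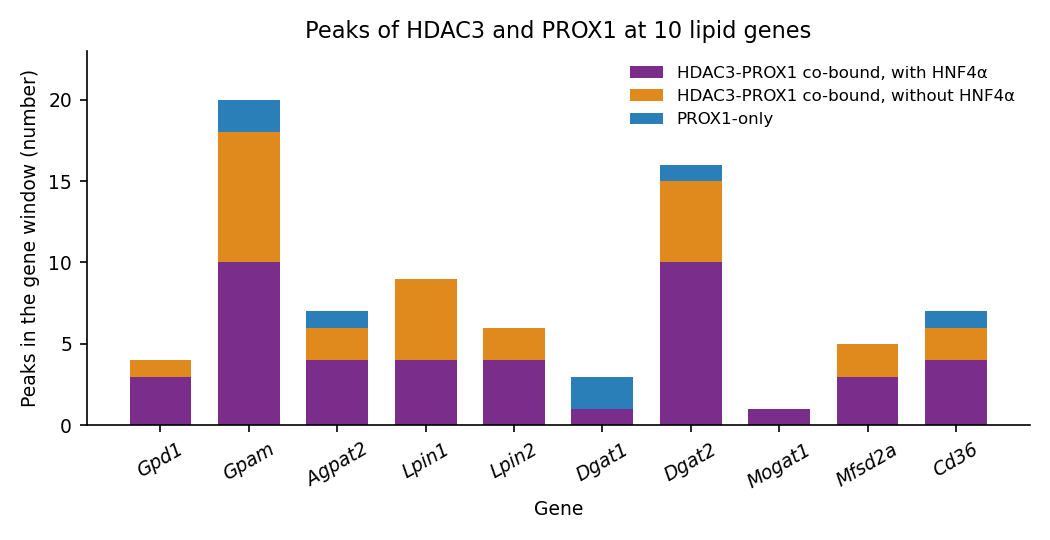
Number of HDAC3 and PROX1 peaks (y axis) in the window of each of the 10 genes (x axis), stacked by class, from 1 pooled peak list per factor, so that no error bars exist. *Gpam* (18 co-bound) and *Dgat2* (15 co-bound) stand above the other genes, and *Dgat1* and *Mogat1* have 1 co-bound peak each.

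*Gpd1*, which reduces dihydroxyacetone phosphate to the glycerol phosphate backbone, lies on the forward strand of chromosome 15 (99547946 to 99555436). Its window of 59.5 kb held 4 co-bound peaks, 3 of them with HNF4α, and 0 PROX1-only peaks. The highest HNF4α score of these was 83.9, at a peak in the gene's own intron (99549084 to 99549283), 1238 bp past the TSS. The peak of the ChIP-reChIP product, at -1516 bp, lies between genes. The 2 others, at -7105 and -5813 bp with HNF4α scores of 48.1 and 38.6, lie in introns of the neighbour *Smarcd1*, and the nearest TSS of both is that of *Gm17241*.

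*Gpam*, the mitochondrial acyltransferase that adds the first acyl chain, had the most peaks of the 10 genes. It lies on the reverse strand of chromosome 19 (55142142 to 55201824), and its window of 112 kb held 18 co-bound and 2 PROX1-only peaks. As many co-bound peaks were present at 29 of all genes (0.13%). HNF4α was present at 7 of 7 co-bound peaks upstream of the outermost TSS and at 3 of 11 past it. Another *Gpam* transcript starts within the gene, and most of these 11 peaks lie upstream of that start. The upstream peaks ran from -4.59 to -43.3 kb, all between genes, with HNF4α scores from 30.6 to 104.1. Those at -39.6 and -43.3 kb are nearer to the TSS of *Tectb* than to that of *Gpam*. The peak nearest the *Gpam* TSS, centred at 81 bp (55201643 to 55201842), had a score of 37.2. Past it, 8 peaks in introns had no HNF4α by the 50% rule, of which 7 had no HNF4α peak in contact. Of these intronic peaks, 2 lay with centres 207 bp apart, the closest neighbours at the 10 genes.

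*Agpat2*, the acyltransferase of the endoplasmic reticulum that adds the second chain and is mutated in a form of congenital lipodystrophy, lies on the reverse strand of chromosome 2 (26448577 to 26459937). Its window of 63.4 kb held 6 co-bound peaks, 4 of them with HNF4α, and 1 PROX1-only peak. The highest HNF4α score of the 4 was 92.8, at the peak nearest the TSS (26458789 to 26458988), 1048 bp past the outermost TSS and 557 bp from the start of another *Agpat2* transcript. The other 3 had scores from 49.0 to 60.3. The peaks within the gene lie in introns, apart from the one near the start. The other HDAC3 and PROX1 peaks of the window all lie in introns of *Gm20532*, a gene model that overlaps *Agpat2*. The PROX1-only peak, at 9029 bp past the TSS, had no HNF4α peak in contact, and the co-bound peak next to it, at 8745 bp, had one with a score of 49.5.

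*Lpin1* and *Lpin2* encode phosphatidate phosphatases, of which lipin 1 is also a nuclear coactivator of fatty acid oxidation genes. Relative to the outermost TSS, most co-bound peaks of *Lpin1* lay upstream and all those of *Lpin2* lay past it. *Lpin1*, on the reverse strand of chromosome 12 (16542475 to 16596576), had 9 co-bound peaks, 8 of them upstream. The peak nearest the TSS, at -320 bp and shown above, and the peak in an exon, at 27.4 kb, had no HNF4α. Of the upstream peaks, 5 lay from -40.8 to -44.5 kb, nearer to the TSS of *Ntsr2* than to that of *Lpin1*, and 3 of these had HNF4α, with scores of 59.8, 78.7 and 47.6. The highest score at *Lpin1* was 79.2, at a peak at -28.9 kb (16625345 to 16625544). *Lpin1* is the gene with the lowest share of co-bound peaks with HNF4α, 4 of 9, and a window starting 10 kb upstream held 0 of them.

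*Lpin2*, on the forward strand of chromosome 17 (71531900 to 71599157), had 6 co-bound peaks, all past the outermost TSS, from 19.7 to 42.1 kb, and 4 had HNF4α. The peak with a score of 111.7 is the nearest to the outermost TSS and lies 2366 bp upstream of the start of a shorter *Lpin2* transcript. Another co-bound peak (71553757 to 71553956) lies 137 bp upstream of the start of an *Lpin2* transcript within the gene. It had no HNF4α peak in contact. The outermost promoter of *Lpin2* had an HNF4α peak of score 36.8, at 781 bp, and no peak of HDAC3 or PROX1.

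*Dgat1* and *Dgat2* encode unrelated enzymes for the last acyl transfer. *Dgat2*, on the reverse strand of chromosome 7 (106302173 to 106331223), had 15 co-bound peaks in 81.1 kb, HNF4α being present at 10, and 1 PROX1-only peak. As many co-bound peaks were present at 66 of all genes (0.295%), and per length of window 0.0626% of genes were as dense. The score of 109.8 belongs to the intronic peak shown above, 12532 bp past the TSS, which has a second co-bound peak with a score of 64.6 beside it, at 11966 bp. No co-bound peak lay within 1 kb of the TSS. The nearest, at -8890 bp (106340013 to 106340212), had an HNF4α score of 62.7, whereas an HNF4α peak at -367 bp, of score 22.6, touched neither factor. Upstream, 7 of 8 co-bound peaks had HNF4α and past the TSS 3 of 7.

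Of the upstream peaks of *Dgat2*, 4 lie from -42.1 to -47.5 kb inside *Mogat2*, which encodes a monoacylglycerol acyltransferase best known from the intestine, and the nearest TSS of these is that of *Mogat2*. All 4 had HNF4α, with scores of 92.4, 55.6, 75.4 and 74.0. These 4 are also the whole count of co-bound peaks in the *Mogat2* window, and the lists do not say which gene they act on.

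*Dgat1*, on the reverse strand of chromosome 15 (76332445 to 76342381), had 1 co-bound peak in 61.9 kb, with an HNF4α score of 49.0. It lies at -40.9 kb (76383216 to 76383415), nearer to the TSS of *Gpr172b*. The 2 PROX1-only peaks, at -30.8 and -43.6 kb, also had HNF4α, with scores of 57.5 and 30.2. All 3 peaks at *Dgat1* thus lay more than 30 kb from its TSS, and 0 co-bound peaks were left when each peak was given to the nearest TSS.

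*Mogat1*, whose enzyme makes diacylglycerol from monoacylglycerol, lies on the forward strand of chromosome 1 (78507566 to 78534748). Its 1 co-bound peak in 79.2 kb lies at the promoter (78507567 to 78507766), 101 bp past the TSS, with an HNF4α score of 35.3. An HNF4α peak of score 57.0 in an exon, 26953 bp past the TSS, touched neither factor. Counts of 1, as at *Dgat1* and *Mogat1*, were reached by 38.4% of all genes.

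**Figure D2:**
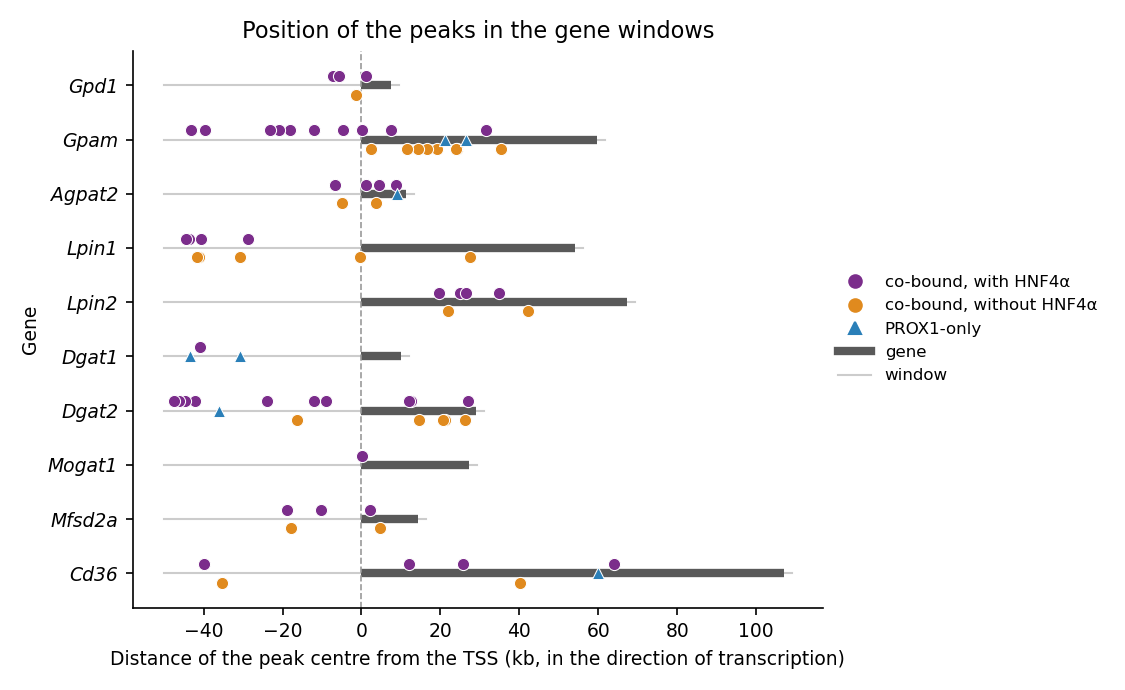
Position of every HDAC3 and PROX1 peak (points) relative to the TSS of the gene, in kb along the direction of transcription (x axis), for the 10 genes (rows), with co-bound peaks set slightly above the line where HNF4α was present and below it where it was not. Upstream of *Gpam* all 7 co-bound peaks had HNF4α, whereas 8 of the 11 past its outermost TSS did not. The *Lpin2* peaks lie past the outermost TSS.

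*Mfsd2a*, the lysophosphatidylcholine carrier, lies on the reverse strand of chromosome 4 (122624093 to 122638431), and 3 of its 5 co-bound peaks had HNF4α. Their scores were 99.9 at -10.2 kb, 103.7 at -18.9 kb (122657199 to 122657398) and 33.9 in an intron at 2.24 kb (122636090 to 122636289), the co-bound peak nearest the TSS. With the ChIP-reChIP peak at -17.8 kb, the 3 upstream peaks each touched an HNF4α peak with a score of at least 99.9, and 96.3% or more of all HNF4α peaks scored no higher. The 2 distal ones are nearer to the TSS of *Mycl1*. *Mfsd2a* also had 4 HNF4α peaks that touched neither factor, with scores from 20.3 to 43.3, of which 3 lie in *Mycl1*.

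*Cd36*, the fatty acid translocase, has the longest window, 159 kb on the reverse strand of chromosome 5 (17287508 to 17394777). It held 6 co-bound peaks, 4 of them with HNF4α, and 1 PROX1-only peak. The highest scores were 99.9, at an intronic peak 25.6 kb past the TSS (17369030 to 17369229), and 80.1, at the co-bound peak nearest the TSS (12085 bp past it, 17382592 to 17382791). The co-bound peak at -39.8 kb, with an HNF4α score of 60.8, is nearer to the TSS of *Gnat3*. A co-bound peak without HNF4α (17354539 to 17354738) lies 971 bp from the start of a shorter *Cd36* transcript and has a GC content of 29.5%, the lowest of the 71. The PROX1-only peak, at 59.9 kb, had an HNF4α score of 20.7, at the low end of the list. Per length of window, 12.8% of all genes were as dense in co-bound peaks as *Cd36*.

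HNF4α was present at 44 of the 71 co-bound peaks, 62.0% (95% CI 50.3 to 72.4), beside 61.3% of all co-bound peaks. Of the other 27, 5 were touched by an HNF4α peak over less of their length and 22 had no contact. The PROX1-only peaks had HNF4α at 4 of 7 (57.1%, 95% CI 25 to 84.2), an interval that includes the 36.7% of all PROX1-only peaks. Upstream of the outermost TSS 25 of 34 co-bound peaks had HNF4α (73.5%, 95% CI 56.9 to 85.4) and past it 19 of 37 (51.4%, 95% CI 35.9 to 66.6). The direction rested on *Gpam* and *Dgat2*, and at the 8 other genes the counts were 11 of 19 (57.9%) and 13 of 19 (68.4%). Over all windows the shares were 60.5% and 60.9%.

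The HNF4α score, whose scaling is not given and which ranks peaks within its list, ran from 26.9 to 111.7 at the 44 peaks, with a median of 60.0 and quartiles of 45.8 and 79.4. All 12284 co-bound peaks with HNF4α had a median of 52.3 and quartiles of 36.3 and 73.0. The median of the whole HNF4α list, 41.9, was exceeded at 33 of the 44 (75%, 95% CI 60.6 to 85.4) and at 65.3% of all co-bound peaks with HNF4α. At the 44 peaks, centres of the HNF4α and co-bound peaks lay a median of 27 bp apart and at most 67 bp. The 50% rule itself keeps these centres close, so the distances are no separate result. At the 5 co-bound peaks touched over less of their length, the distances ran from 23 to 163 bp.

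**Figure D3:**
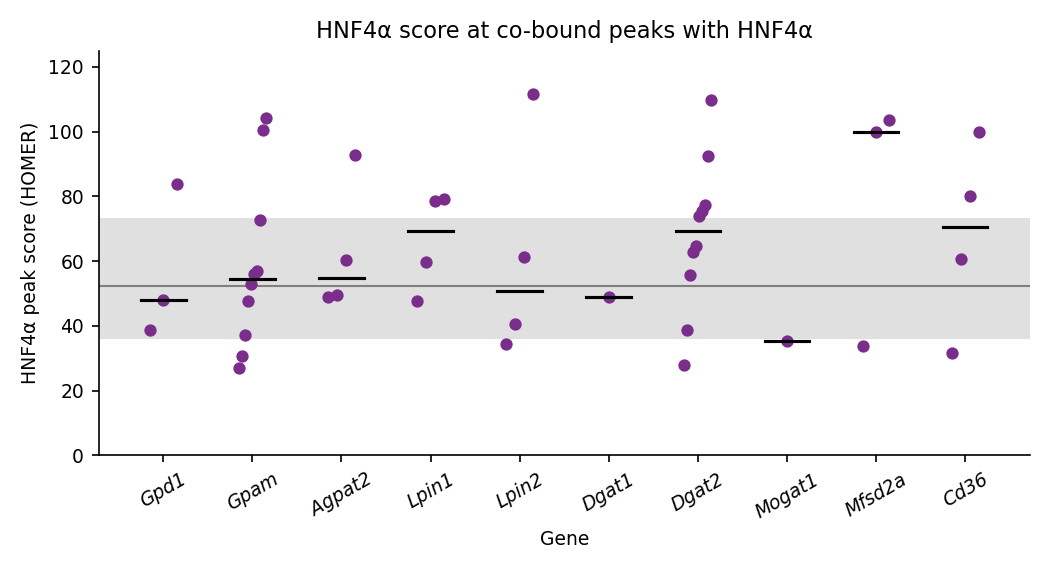
Score of the HNF4α peak (y axis) at each co-bound peak with HNF4α (points) in the windows of the 10 genes (x axis), with the median per gene as a black bar, and the median (grey line, 52.3) and quartiles (grey band, 36.3 to 73.0) over all co-bound peaks with HNF4α. Scores run from 26.9 at *Gpam* to 111.7 at *Lpin2*, and within *Gpam* and *Dgat2* they span most of that range.

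By the annotation, 39 of the 71 co-bound peaks were centred in introns (54.9%), 25 between genes (35.2%), 6 within 1 kb of the start of a protein-coding transcript (8.45%) and 1 in an exon. The TSS of the gene itself was the nearest for 50 peaks, and that of another gene for 21. Of the 6 promoter peaks, those of *Gpam*, *Mogat1* and *Agpat2* had HNF4α and those of *Lpin1*, *Lpin2* and *Cd36* did not. Neighbouring co-bound peaks of a gene had centres closer than 1 kb in 8 of 61 pairs.

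**Figure D4:**
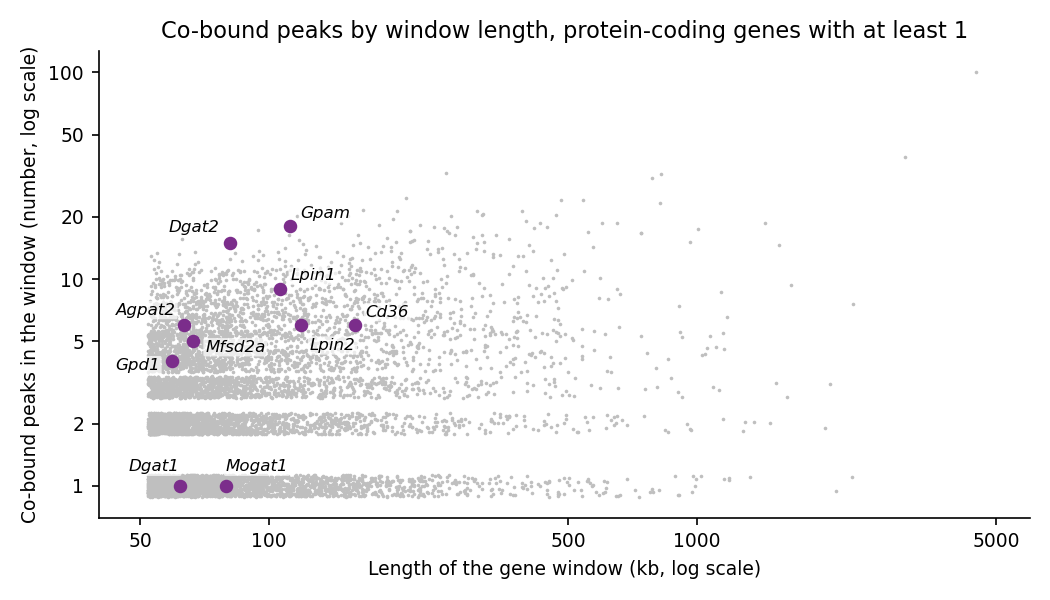
Number of co-bound peaks (y axis, log scale) against the length of the gene window in kb (x axis, log scale), for the 8588 protein-coding genes with at least 1 co-bound peak (grey, spread slightly along the y axis so that equal counts can be seen) and the 10 genes (purple, labelled). *Gpam* (18) and *Dgat2* (15) lie near the upper edge for windows of 112 and 81.1 kb, and *Dgat1* and *Mogat1* lie at 1.

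The HNF4α consensus, with at most 2 mismatches on either strand, was found in 21 of the 44 co-bound peaks with HNF4α (47.7%, 95% CI 33.8 to 62.1) and in 4 of the 27 without (14.8%, 95% CI 5.92 to 32.5). All co-bound peaks had 41.4% and 15.1%. Of the 2 kb flanks at the 10 genes, 11 of 142 held it (7.75%), beside 9.55% of all flanks. By gene, it was found in 4 of 6 co-bound peaks at *Cd36*, 6 of 18 at *Gpam*, 5 of 15 at *Dgat2* and 3 of 6 at *Agpat2* and *Lpin2*. The counts were 2 of 5 at *Mfsd2a*, 1 of 4 at *Gpd1* and 1 of 1 at *Dgat1*. At *Lpin1* 0 of 9 held it, although 4 of the 9 had HNF4α, and at *Mogat1* 0 of 1, which had HNF4α. A match describes letters in the window and does not show a bound site.

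The C/EBP core TTGCNNAA, searched without mismatch on both strands, was in 14 of the 44 (31.8%, 95% CI 20 to 46.6) and 5 of the 27 (18.5%, 95% CI 8.18 to 36.7), beside 27.5% and 23.9% over all co-bound peaks and 11.3% of the genes' own flanks. The Rev-erbα DR2 consensus with at most 3 mismatches was in 0 of the 71, which by the same limit of 3 counts allows up to 4.23%, beside 1.66% of all co-bound peaks and 1.05% of all flanks. The median GC content was 49.2% with HNF4α and 49.0% without, beside 46.5% over all co-bound peaks. Its part in the motif shares was not tested.

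**Figure D5:**
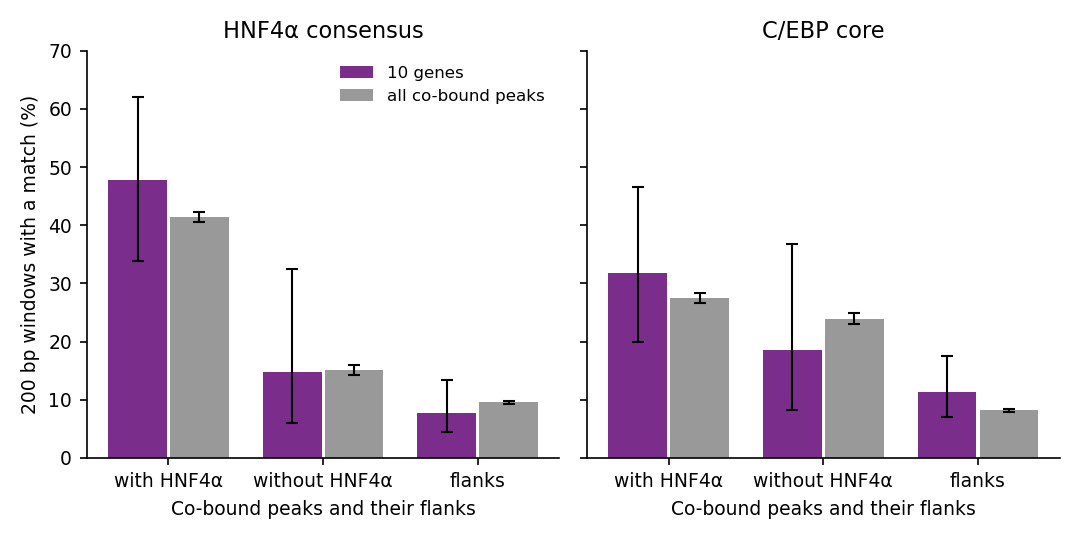
Share of 200 bp windows, in percent (y axis), that hold the HNF4α consensus (left) or the C/EBP core (right), for co-bound peaks with HNF4α, those without and the flanks 2 kb to either side (x axis), at the 10 genes (purple) and over all co-bound peaks (grey), with 95% Wilson intervals as error bars. For the HNF4α consensus, peaks with HNF4α (47.7% at the genes, 41.4% over all) lie above those without (14.8% and 15.1%), and the intervals at the genes are wide.

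The windows of the 10 genes held 65 HNF4α peaks, of which 12 touched no peak of HDAC3 or PROX1 (18.5%, 95% CI 10.9 to 29.6), beside 31.4% of all HNF4α peaks. Their scores ran from 20.3 to 59.8 with a median of 33.2, where the 53 in contact had a median of 59.8. The 12 lay at *Dgat2* (4), *Mfsd2a* (4), *Gpam* (2), *Lpin2* (1) and *Mogat1* (1). The highest, 59.8, lies in an intron of *Gpam* at 39.4 kb.

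Other genes of the pathways were described by the same rule from lists drawn up from general knowledge. Of 12 further genes of triglyceride synthesis, 8 had a co-bound peak and 7 one with HNF4α, with a median of 2 per gene, and 3 had an HDAC3-only peak. The most were 10, at *Gpat4* (listed as *Agpat6*), an acyltransferase of the endoplasmic reticulum, and 0 were at glycerol kinase (*Gk*, listed as *Gyk*), *Gpat2*, *Agpat4* and *Agpat5*. Of 9 further genes of lipid uptake, 6 had a co-bound peak and 4 one with HNF4α, with a median of 1 per gene, and 3 had an HDAC3-only peak. *Scarb1*, the HDL receptor, had 18 co-bound peaks, as many as *Gpam*, and HNF4α was present at 12. The fatty acid transport genes *Slc27a1*, *Slc27a3* and *Slc27a6* had 0 co-bound peaks.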

How the data were processed

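Liver chromatin of 8 labelled libraries was analysed as 3 deposited peak lists, 1 per factor. By the methods and processing notes, the authors used Bowtie 0.12.7 to align reads to mm9, dropped duplicates, pooled the libraries of a factor and called peaks with HOMER against IgG, with limits on enrichment and read density, and filtered HNF4α peaks on the knockout. The deposited HDAC3 and PROX1 lists give positions of 200 bp peaks without scores, and their co-bound peaks already carry the authors' overlap rule and a minimum signal of the other factor. The deposited HNF4α list gives 85 to 168 bp peaks with a score in an unnamed column, taken here as the authors' HOMER score. Depth is unknown, so the precision of a single peak cannot be given, and 3 blank lines per list of HDAC3 and PROX1 were left out.

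Genes and starts came from GENCODE on NCBIM37, the assembly of mm9, with the outermost 5′ end as the TSS. A promoter was 1 kb around the start of a protein-coding transcript. Sequences were read from that assembly, and the words searched were counted on both strands of 200 bp windows. The 10 genes, both pathway lists and the settings were chosen with earlier results of these data known. All 10 genes were named, with the peak of the highest HNF4α score, the peak nearest the TSS, promoter peaks and the ChIP-reChIP peaks, and of the lists the genes with the most and with 0 co-bound peaks. No test was run, since replicates are pooled. The code was tested on simulated data. The tools were samtools 1.23.1, matplotlib 3.10.9, pysam 0.24.0, pandas 2.3.3, scipy 1.17.1, numpy 2.4.6 and Python 3.11.15. Alternatives changed the window, the gene assignment, the overlap rules, the HNF4α list, the mismatches and the motif window. RNA-seq, H3K27Ac and *Hnf4α* knockout libraries were not analysed here.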

Additional observations from a re-analysis of the deposited data

How the results depend on the processing

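No paired analysis was possible because the libraries of each factor were pooled into 1 list, and for the same reason no library could be left out. A count was taken as close to the value reported when within 1.5 times of it, and a share when inside its 95% interval. Of 80 summary values under 10 alternatives, many of which a given alternative cannot touch, 68 were close and 12 moved. A window from 10 kb upstream held 45 co-bound peaks, 24 of them with HNF4α, and 4 PROX1-only peaks. Assignment to the nearest TSS within 100 kb gave 51 co-bound peaks, 29 of them with HNF4α, and 3 PROX1-only peaks. An overlap of at least 75% left 22 co-bound peaks with HNF4α (31.0%), and HNF4α peaks above the median score left 33 (46.5%). The HNF4α peaks are 85 to 168 bp wide, so the narrower ones cannot cover 75% of a 200 bp peak wherever they lie. The 75% setting thus also selects on peak width, and the causes of these changes were not tested. With at most 1 mismatch the HNF4α consensus was in 6.82% of co-bound peaks with HNF4α and 3.7% of those without, and with at most 3, an alternative chosen after seeing the data, in 84.1% and 59.3%. Co-bound peaks with HNF4α fell to 0 at *Lpin1* (10 kb window), *Dgat1* (10 kb window, nearest TSS, 75% overlap) and *Mogat1* (75% overlap, scores above the median). At *Dgat1* and *Mogat1* the HNF4α peak lay wholly inside the co-bound peak, covering 73.0% and 65.5% of it, and was too narrow to reach 75%. Depth limits what peaks below the authors' thresholds could show, and it is unknown here.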
